A study of Homo sapiens with 58 samples.

Results

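Regulatory elements (REs) whose centre fell inside protein-coding sequence, away from promoters, were described in cranial neural crest cells (CNCCs) in which the level of the transcription factor SOX9 was titrated. An RE entered this set when its midpoint lay within a coding segment of a protein-coding gene in GENCODE release 44 (hg38) and more than 2000 bp from every annotated transcript start. Of 151457 REs measured, 1117 met the rule, which is 0.738% of all REs and 1.04% of the 107906 REs more than 2000 bp from a start. The rule used position only and no measured value.

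Accessibility was measured by ATAC-seq, which reads where a transposase can reach the DNA of open chromatin. All CNCCs came from H9, a widely used line of human embryonic stem cells. The SOX9-tagged cells were clones S9CC13 and S9CC47, whose endogenous SOX9 is fused to FKBP12-F36V and is degraded on addition of dTAGV-1, and the cells without a tag are called wild-type (WT). The 58 samples comprised SOX9-tagged cells after 48 h at 0, 0.5, 1.6, 5, 16 or 500 nM dTAGV-1 (n = 7 per dose), WT cells after 48 h at 0 or 500 nM (n = 2 each), and a time course of both genotypes. The time course had 500 nM for 3 h, 500 nM for 24 h and vehicle (n = 2 each). Each genotype had 1 vehicle group, labelled 24 h, so the changes at 3 h are against a 24 h vehicle. By the labels, SOX9 stood at 100%, 77.9%, 51.7%, 25.8%, 8.14% and 0.95% of its full level from 0 to 500 nM. A replicate is a clone in a named differentiation. The main fits took out differences between differentiations or replicates by a model term. The p-values below measure the spread that remains around the treatment effect, over differentiations of 2 edited clones and of 1 unedited line. By the titles both SOX9-tagged replicates of the time course were clone S9CC13, though the clone of R5 is uncertain.

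Most enhancers lie in introns or between genes, but coding exons can also bind transcription factors, and such exonic sequence has to serve both the protein and the factor. Coding exons are on average richer in G and C than introns. SOX9 is an HMG-box factor that binds the minor groove of short motifs with an ACAAT or ACAAAG core, often as a facing pair bound by a SOX9 dimer, and in the cranial neural crest it takes part in the specification of the facial skeleton and cartilage.

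The stretches below show some of the SOX cores in the coding-exon REs that the results turn on, and other cores of the same REs can lie outside them. They are up to 151 bases of the hg38 plus strand, with SOX cores (ACAAT or ACAAAG, or their reverse complements ATTGT and CTTTGT) in capitals, and bases of untranslated regions were left out. The 8 REs that lost most accessibility at 500 nM among those lower in all replicates come first.
OVCH1, exon 20, chr12:29455268-29455418: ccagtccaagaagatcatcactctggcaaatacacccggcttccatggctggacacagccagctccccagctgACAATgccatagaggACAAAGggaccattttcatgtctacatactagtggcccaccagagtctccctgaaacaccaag
CLCA1, exon 9, chr1:86491228-86491378: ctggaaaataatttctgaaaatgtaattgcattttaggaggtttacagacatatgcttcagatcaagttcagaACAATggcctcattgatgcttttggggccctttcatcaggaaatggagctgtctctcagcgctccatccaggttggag
WASL, exon 9, chr7:123692402-123692552: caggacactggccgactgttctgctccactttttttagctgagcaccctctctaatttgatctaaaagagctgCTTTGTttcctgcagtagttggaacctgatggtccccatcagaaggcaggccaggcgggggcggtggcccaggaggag
AP4E1, exon 12, chr15:50949826-50949934: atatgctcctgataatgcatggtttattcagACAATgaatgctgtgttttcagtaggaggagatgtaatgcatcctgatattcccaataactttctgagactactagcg
RYR3, exon 33, chr15:33659702-33659852: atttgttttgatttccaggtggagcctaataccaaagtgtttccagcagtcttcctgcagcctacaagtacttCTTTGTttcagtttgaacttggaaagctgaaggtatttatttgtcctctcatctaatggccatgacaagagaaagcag
ZBTB20, exon 10, chr3:114380342-114380492: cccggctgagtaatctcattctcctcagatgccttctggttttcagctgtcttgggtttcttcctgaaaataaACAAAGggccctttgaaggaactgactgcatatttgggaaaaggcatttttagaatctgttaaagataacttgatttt
CD40LG, exon 5, chrX:136659216-136659366: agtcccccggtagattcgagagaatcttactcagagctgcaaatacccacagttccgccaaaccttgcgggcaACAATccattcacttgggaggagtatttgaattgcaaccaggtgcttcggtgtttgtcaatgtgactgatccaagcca
TNFAIP3, exon 5, chr6:137876030-137876180: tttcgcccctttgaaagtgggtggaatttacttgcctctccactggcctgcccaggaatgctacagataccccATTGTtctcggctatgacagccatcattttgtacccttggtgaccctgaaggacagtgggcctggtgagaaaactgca

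A core lay wholly within coding sequence in each of these stretches except that of ZBTB20, whose core fell in the flanking intron. The stretches do not show every core. The CLCA1 RE held 3 cores, 1 inside coding sequence and 2 outside, and its stretch shows 1. The OVCH1 RE held 4, and its stretch shows 2. The next stretches are from the most affected RE of a signalling receptor gene, and from NTNG1 and EXO1, in which 2 cores face each other with 5 bases between them. In NTNG1 the pair was outside the coding bases, and in EXO1 it was inside them. The NTNG1 RE held 5 cores, all outside coding sequence, and its stretch shows 2.
LRP2, exon 50, chr2:169185870-169186020: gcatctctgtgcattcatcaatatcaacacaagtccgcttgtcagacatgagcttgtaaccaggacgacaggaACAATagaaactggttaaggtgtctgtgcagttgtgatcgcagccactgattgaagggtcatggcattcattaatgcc
NTNG1, exon 4, chr1:107395056-107395206: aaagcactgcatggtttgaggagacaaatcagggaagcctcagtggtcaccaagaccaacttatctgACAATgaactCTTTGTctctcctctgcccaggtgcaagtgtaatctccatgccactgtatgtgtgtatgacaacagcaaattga
EXO1, exon 7, chr1:241857348-241857498: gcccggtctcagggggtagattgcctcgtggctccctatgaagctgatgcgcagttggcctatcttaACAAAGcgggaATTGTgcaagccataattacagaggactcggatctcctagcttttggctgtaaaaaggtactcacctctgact

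Stretches of a pair of REs that gained accessibility follow. They were cut at the middle of the RE, while those above with a core were centred on it, so their core content cannot be set against that of the stretches above. Neither stretch holds a core, and the PAPPA RE held 1 core outside it.
PAPPA, exon 16, chr9:116352684-116352834: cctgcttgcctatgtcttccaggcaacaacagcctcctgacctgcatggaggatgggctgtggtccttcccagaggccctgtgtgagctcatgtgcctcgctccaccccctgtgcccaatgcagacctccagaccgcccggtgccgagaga
TBC1D1, exon 2, chr4:37902096-37902243: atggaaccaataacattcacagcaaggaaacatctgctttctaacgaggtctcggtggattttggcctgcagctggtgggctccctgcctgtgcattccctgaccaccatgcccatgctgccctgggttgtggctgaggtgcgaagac

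The 1117 REs lay in 1027 genes. Of these genes 946 held 1 such RE, 81 held more than 1, and 7 held 3 or more. RBM20, a regulator of splicing, and LAMA2, a laminin chain of basement membranes, held 4 each, and KNDC1 held 3. The median RE had 200 coding bases (31 to 1464), 381 REs were coding over at least 50% of their length and 96 over all of it, and 995 were 501 bp long. The midpoint lay in an internal coding exon in 766 REs, in the last coding exon in 293, in the only coding exon in 31 and in the first in 27. The median distance to a start was 7103 bp (interquartile range 3622 to 14818).

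Before dTAGV-1 the coding-exon REs were about as accessible as other distal REs and richer in GC. Their median level at 0 nM was 3.53 CPM/kb (CPM, the count scaled to a common library total by TMM, divided by the length in kilobases), against 3.60 in 46930 intron REs, 3.50 in 56321 intergenic REs and 9.98 in the 43551 REs within 2000 bp of a start. Median GC content was 51.8%, against 45.7%, 45.5% and 58.1%, and the observed to expected ratio of CpG was 0.307, against 0.195, 0.187 and 0.503. The highest levels were in the last exon of SEMA3D, a secreted guidance cue (94.1 CPM/kb), in exon 7 of LAMA4, a laminin chain (73.7), in CREB3 (58.3), in ANKRD26 (54.3) and in ANKRD39 (50.0). Of those 5 the ANKRD39 RE passed the test at 500 nM, at -0.48 ± 0.07 (log2 fold change ± SE, edgeR adjusted p = 6.2e-06). The ANKRD26 RE did not pass (0.14 ± 0.05, edgeR adjusted p = 0.055), though it was higher in all 7 replicates and passed with the replicate as a block (edgeR adjusted p = 0.026).

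A smaller share of coding-exon REs than of other distal REs held a SOX core. At least 1 SOX core was present in 682 coding-exon REs (61.1%), against 73.0% of intron and 74.6% of intergenic REs and 68.8% of all REs, which are mostly of the same 501 bp length. The TFAP2 motif GCCNNNGGC was in 29.2%, against 21.3% and 20.5% (27.1% of all REs). The AP-1 motif TGANTCA was in 13.2%, against 17.8% and 18.4% (16.7%). The E-box CAGATG was in 46.6%, against 48.3% and 47.3% (44.3%), and the homeodomain core TAATTA in 11.6%, against 17.1% and 17.4% (14.7%). Motifs were searched on both strands, the listed motifs can overlap, and a match is no evidence of binding. A facing pair of SOX cores 3 to 5 bases apart was in 6 coding-exon REs (0.537%) and in 0.475% of all REs. Of the 3538 distal REs in exon sequence outside coding segments, 68.3% held at least 1 SOX core.

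The library totals ran from 22905782 to 81040023 counts, the median coding-exon RE held 40 to 157 counts per library, and these REs together held 0.349% to 0.420% of the counts. Promoters of the cranial neural crest genes NR2F1 (121 CPM/kb), TWIST1 (87.0), ALX1 (52.4), PRRX1 (45.2) and TFAP2A (35.8) were open at 0 nM. SOX10 (3.26), FOXD3 (9.05), pluripotency gene POU5F1 (2.56), DPPA4 (7.85) and epithelial CDH1 (4.19) were lower, while LIN28A (35.5), neuronal SNAP25 (23.9) and epithelial EPCAM (22.3) also had open promoters. At 5 nM the library of S9CC47_R6 stood apart, with a slope of 0.152 log2 units per 10% GC where its 0 nM library had -0.0214, and counts of calls and values of named REs at 5 nM are given with and without it. For S9CC13_R14 the concentration labels of the 0 and 0.5 nM libraries are the reverse of their titles. The SOX9 levels in the labels go with the titles, which were followed, and without this replicate 109 coding-exon REs were lower and 73 higher at 500 nM. The count columns of the 3 SOX9-tagged time-course libraries of R5 name clone S9CC47 where the sample titles name S9CC13. They were matched by differentiation, treatment and time, and their clone is uncertain.

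Full depletion of SOX9 changed accessibility at some of the 1117 coding-exon REs. At 500 nM for 48 h, 126 were lower (11.3%, against 13.9 percent of all REs) and 84 were higher (7.52%, against 10.2 percent of all REs), and 907 did not pass the threshold (edgeR quasi-likelihood test over all 151457 REs, Benjamini-Hochberg adjusted p of 0.05). Both shares were below that background, and no test of the difference was made. Of intron REs 16.4% were lower and 11.2% higher, of intergenic REs 15.0% and 12.3%, and of REs near a start 9.82% and 6.68%. Of the 3538 distal REs in exon sequence outside coding segments, 15.7% were lower and 8.17% higher. The median log2 fold change was 0.019 over the coding-exon REs and 0.018 over all REs. A loss of 2-fold or more was found in 32 (2.87%), against 4.81% of intron and 4.43% of intergenic REs. All 7 libraries at 500 nM lay below all 7 at 0 nM in 26 REs (2.33%, against 3.36% of all REs) and above them in 5 (0.448%, against 0.677%).

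**Figure D1:**
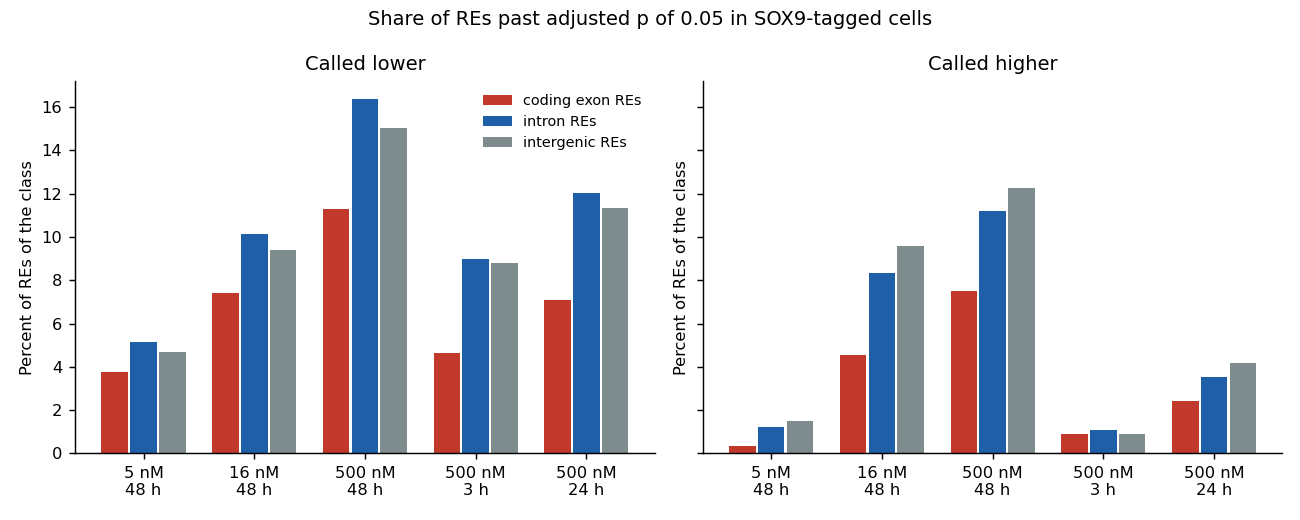
Percent of REs past the edgeR adjusted p threshold in SOX9-tagged cells, lower in the left panel and higher in the right panel, for coding-exon, intron and intergenic REs at 3 doses after 48 h and at 2 times of 500 nM. Coding-exon REs had the smallest share of lower calls in each group of bars, from 3.76% at 5 nM to 11.3% at 500 nM and 48 h.

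The most affected RE lay in exon 20 of 26 of OVCH1 (chr12:29455053-29455553), a gene of the serine protease family. Its 7 libraries at 0 nM ran from 2.25 to 7.07 CPM (median 4.14) and those at 500 nM from 0.0727 to 0.323 (median 0.253). The groups did not overlap, and the log2 fold change was -4.33 ± 0.27 (edgeR adjusted p = 4.7e-12). In exon 9 of 14 of CLCA1 (chr1:86491069-86491569), a modulator of chloride channels known from mucus-producing epithelium, levels ran from 2.44 to 4.62 CPM (median 3.11) at 0 nM and from 0.0632 to 0.435 (median 0.114) at 500 nM. These groups did not overlap either (-4.30 ± 0.22, edgeR adjusted p = 1.2e-13).

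Of these 8 REs that of WASL was the most accessible per length at 0 nM (39.8 CPM/kb). WASL encodes N-WASP, which activates the Arp2/3 complex in actin assembly, and the RE lay in exon 9 of 11 (chr7:123692334-123692834), with 488 of its 501 bases coding and a GC content of 58.9%. Levels ran from 14.3 to 27.5 CPM (median 19.7) at 0 nM and from 0.978 to 2.12 (median 1.75) at 500 nM. The groups did not overlap (-3.64 ± 0.14, edgeR adjusted p = 1.3e-15).

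AP4E1, which encodes a subunit of the AP-4 adaptor complex of vesicle transport, held an RE in exon 12 of 21 (chr15:50949597-50950097) that ran from 0.683 to 2.42 CPM (median 1.49) at 0 nM and from 0.0807 to 0.217 (median 0.180) at 500 nM. The groups did not overlap (-3.25 ± 0.24, edgeR adjusted p = 9.9e-11). The RE in exon 33 of 104 of RYR3 (chr15:33659509-33660009), a calcium release channel, ran from 0.415 to 4.21 CPM (median 1.19) at 0 nM and from 0.0242 to 0.435 (median 0.242) at 500 nM, so that the groups overlapped. It was lower in all 7 replicates (-2.70 ± 0.39, edgeR adjusted p = 9.6e-06).

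The remaining 3 of the most lowered REs lay in genes of transcriptional and immune regulation. ZBTB20, a zinc finger repressor, went from 2.91 to 5.95 CPM (median 4.36) at 0 nM to 0.430 to 0.978 (median 0.709) at 500 nM in exon 10 of 12 (chr3:114380098-114380598). CD40LG, the ligand of CD40 on T cells, went from 1.05 to 2.75 CPM (median 2.32) to 0.267 to 0.833 (median 0.296) in its last exon (chrX:136658881-136659381). TNFAIP3, an inhibitor of NF-κB signalling, went from 0.708 to 1.88 CPM (median 1.23) to 0.114 to 0.761 (median 0.221) in exon 5 of 9 (chr6:137875832-137876332). The groups overlapped for TNFAIP3 and not for the other two, and the log2 fold changes were -2.67 ± 0.17, -2.45 ± 0.22 and -2.27 ± 0.27 (edgeR adjusted p = 7.2e-12, 3.1e-09 and 5.6e-07).

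Gains were smaller. The largest among REs higher in all 7 replicates was in exon 16 of 22 of PAPPA (chr9:116352509-116353009), a metalloproteinase that cleaves IGF-binding proteins. Its level ran from 0.517 to 2.48 CPM (median 1.55) at 0 nM and from 2.02 to 5.85 (median 3.63) at 500 nM, and the groups overlapped (1.36 ± 0.14, edgeR adjusted p = 7e-08). SCAP, the escort protein of the sterol-regulated SREBP factors, held an RE in exon 17 of 23 (chr3:47417389-47417889) that ran from 1.98 to 4.12 CPM (median 3.52) and then from 4.48 to 7.74 (median 6.81), with no overlap (1.02 ± 0.12, edgeR adjusted p = 5.2e-07). The other 4 of the named gains were between 0.92 and 1.02 and lay in TBC1D1, a Rab GTPase-activating protein, TRPS1, a GATA-type repressor, LMBRD1, a lysosomal membrane protein, and ABCG2, an efflux transporter.

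**Figure D2:**
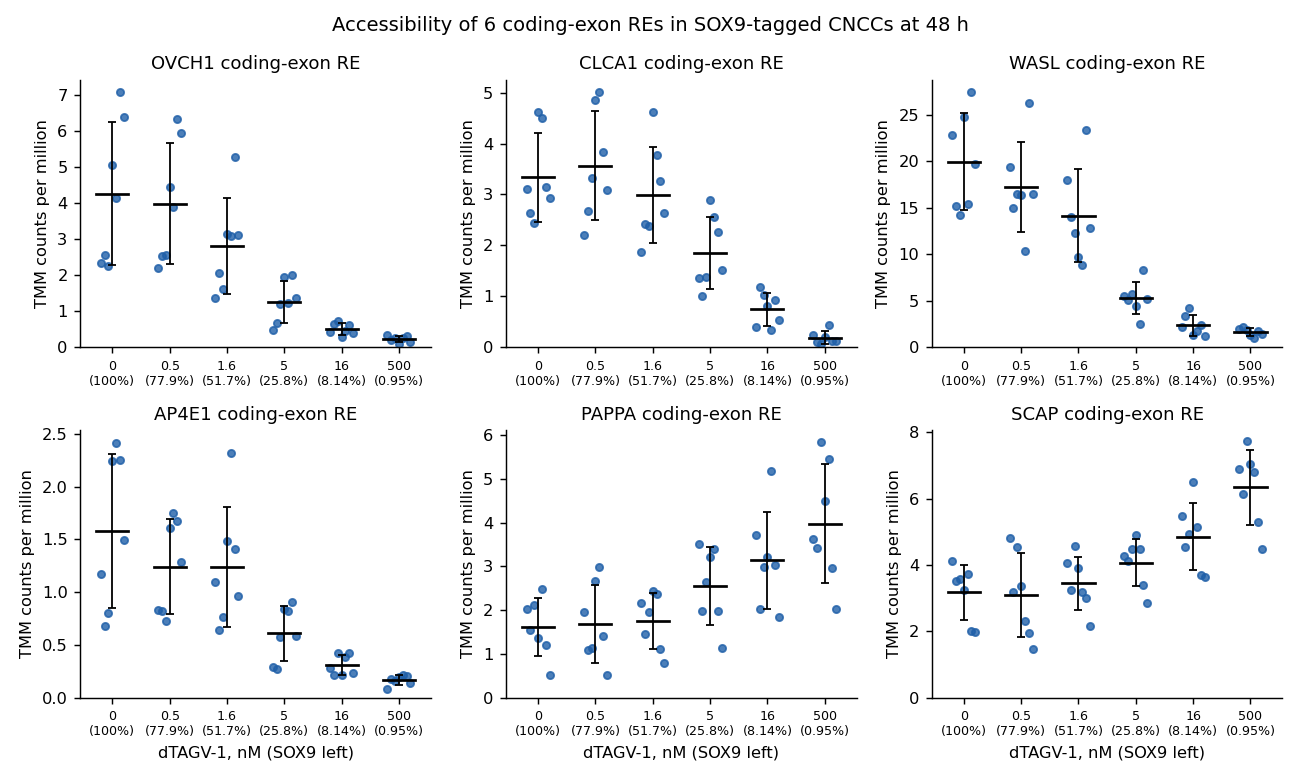
CPM (TMM-scaled) of 6 coding-exon REs in SOX9-tagged cells after 48 h at each dose of dTAGV-1, with the SOX9 level of the labels in brackets. Points are the 7 replicates, bars the mean and whiskers the SD. OVCH1, CLCA1, WASL and AP4E1 fall to at most 2.12 CPM at 500 nM, and PAPPA and SCAP rise.

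Genes of matrix, signalling and guidance were among those with called REs, in small numbers. The counts of each list are to be read against the background at 500 nM, 13.9 percent lower and 10.2 percent higher over all REs with a median of 0.018, and nothing particular to a list is shown by them. Of 13 collagen REs, 1 was lower and 3 were higher. COL5A2, a chain of the fibrillar collagen V, ran from 0.846 to 1.38 CPM (median 0.953) at 0 nM and from 0.180 to 0.537 (median 0.354) at 500 nM in exon 2 of 54, with no overlap (-1.58 ± 0.25, edgeR adjusted p = 2.3e-05). COL6A5 (0.85 ± 0.13, edgeR adjusted p = 2.3e-05), COL14A1 (0.65 ± 0.09, edgeR adjusted p = 5.9e-06) and COL17A1 (0.30, edgeR adjusted p = 0.033) were higher. The median of the list was 0.063.

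Of 15 REs in genes of signalling families, 3 were lower and 2 higher, with a median of 0.038. LRP2, the endocytic receptor megalin, ran from 1.31 to 2.24 CPM (median 1.75) at 0 nM and from 0.296 to 0.978 (median 0.461) at 500 nM in exon 50 of 79, with no overlap (-1.88 ± 0.21, edgeR adjusted p = 1.2e-07). TGFBR2, a TGF-β receptor, was lower in its last exon (-0.60 ± 0.11, edgeR adjusted p = 0.00012), and TGFBRAP1, which the search for TGFB symbols also took in, by -0.39 (edgeR adjusted p = 0.049). The ligand gene TGFB1 was higher (0.67 ± 0.12, edgeR adjusted p = 0.00017), as was the receptor gene LRP1B (0.54, edgeR adjusted p = 0.0026). TGFBRAP1 and LRP1B, and COL17A1 among the collagens, were named after their values were seen.

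Of 15 REs in guidance and adhesion genes 2 were lower and none higher, with a median of 0.013. NTNG1, a membrane-anchored netrin, ran from 0.708 to 2.69 CPM (median 1.41) at 0 nM and from 0.409 to 0.807 (median 0.601) at 500 nM, with overlap (-1.33 ± 0.21, edgeR adjusted p = 2.5e-05). CELSR3, a cadherin of planar cell polarity, was lower by -0.94 ± 0.14 (edgeR adjusted p = 1.5e-05). Of 9 REs in other matrix genes, LAMA1 (-0.64 ± 0.14, edgeR adjusted p = 0.0011) and exon 64 of LAMA2 (-0.59 ± 0.18, edgeR adjusted p = 0.019) were lower and none was higher (median 0.005). The 4 REs in neural crest factor genes (GLI3, PAX9, PITX1 and PRRX2) lay between -0.17 and 0.31 and the 15 in zinc finger genes between -0.16 and 0.31, and neither list held a call. The single HOX RE, in HOXD3, was at 0.18 with no call, and the clustered protocadherins held no such RE.

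Of the 3 genes with most of these REs, RBM20 and LAMA2 held called and uncalled ones. In RBM20 the REs of exon 6 (0.82 ± 0.12, edgeR adjusted p = 7.2e-06) and exon 9 (0.48 ± 0.08, edgeR adjusted p = 0.00012) were higher, while exon 2 (0.33 ± 0.19, edgeR adjusted p = 0.23) and exon 4 (-0.28 ± 0.21, edgeR adjusted p = 0.36) did not pass. In LAMA2 exon 64 was called and the other 3 REs lay between -0.01 and 0.38. None of the 3 KNDC1 REs was called at 48 h. The difference between REs of a gene was not tested.

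The share lowered at 500 nM was similar along the gene. It was 11.5% in internal, 11.3% in last and 14.8% in first coding exons, and 1 of 31 in single-exon coding regions. From 2000 to 5000 bp from a start it was 11.2%, from 5000 to 10000 bp 11.3%, and from 10000 to 50000 bp 11.1%. Among the 96 REs just inside the distance limit, at over 2000 and up to 2500 bp, 10 were lower and 5 higher. Among 117 coding-exon REs just outside it, at 1500 to 2000 bp, 9 were lower and 7 higher. With at least 50% of the RE coding the share was 8.14%, and with less 12.9%, at median GC contents of 59.7% and 48.2%.

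The share lowered was close to that of other distal REs at low GC content and below it at high GC content. Below 45% GC, 12.9% of coding-exon REs and 13.3% of intron and intergenic REs were lower at 500 nM. From 45 to 50% the shares were 20.6% and 15.9%, from 50 to 55% 15.0% and 19.2%, from 55 to 60% 8.07% and 20.0%, and at 60% or more 4.81% and 17.6%. With counts corrected for GC within each library the last pair was 6.73% and 16.9%. Shares are given as descriptions, with no test of the difference between classes.

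The shares were also apart at high GC within groups of like level and like motif content. At 55% GC or more and at 3.53 CPM/kb or more, 8.25% of 291 coding-exon REs and 25.2% of 10277 intron and intergenic REs were lower, at median levels of 7.20 and 9.25 CPM/kb. Below 55% GC and at the same level limit the shares were 23.1% of 268 and 23.6% of 41534. At 55% GC or more and with at least 1 SOX core they were 8.93% and 23.2%, and without a core 4.26% and 15.2%. WASL, at 58.9% GC, was among the 28 lowered REs of the high-GC group. GC content, level and motif content move together across these REs, and their part in these shares was not tested.

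**Figure D3:**
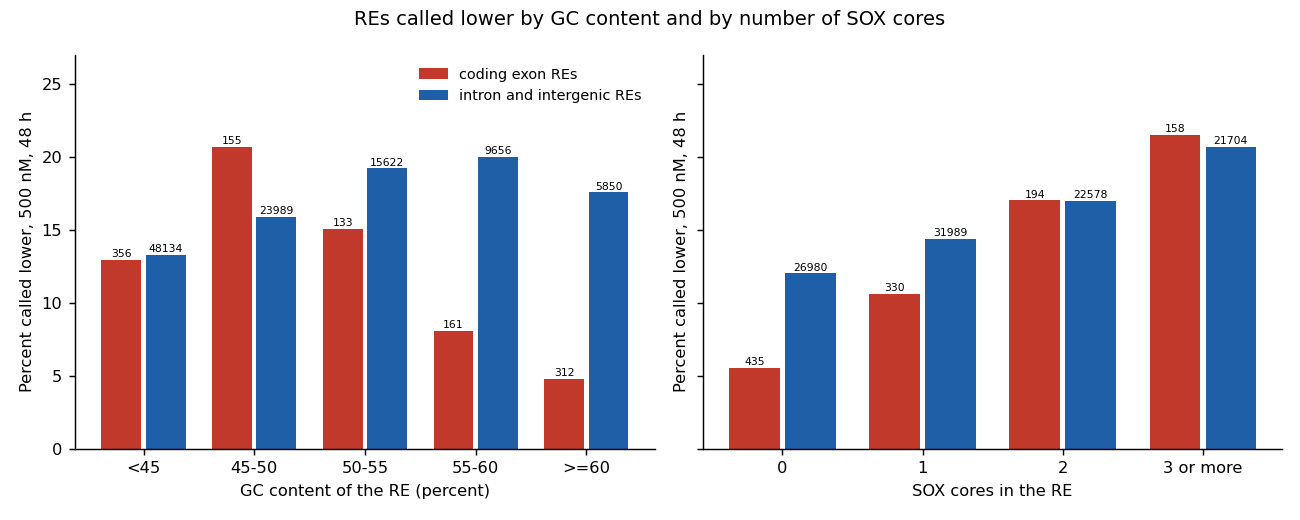
Percent of REs called lower at 500 nM and 48 h by GC content (left) and by number of SOX cores (right), for coding-exon REs and for intron and intergenic REs. The classes lie close together below 45% GC (12.9% and 13.3%) and apart at 60% or more (4.81% and 17.6%).

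The share lowered rose with the number of SOX cores. With 0, 1, 2 and 3 or more cores, 5.52%, 10.6%, 17.0% and 21.5% of coding-exon REs were lower at 48 h, against 12.01%, 14.4%, 17.0% and 20.7% of intron and intergenic REs. At 3 h the shares were 1.15%, 3.03%, 6.70% and 15.2%, against 3.11%, 6.83%, 11.0% and 16.9%. The share of coding-exon REs with a core also went from 83.7% below 45% GC to 25.3% at 60% GC or more, and the part of GC content in this order was not tested.

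The lowered REs had the largest share with a core inside the coding bases. A core lay wholly within coding sequence in 59 of the 126 lowered REs (46.8%), in 21 of the 84 raised ones (25.0%) and in 245 of the 907 others (27.01%). Per kilobase of coding sequence there were 2.94, 1.32 and 1.42 cores, and per kilobase of the non-coding remainder 3.48, 3.21 and 2.396. The median GC contents of these sets were 47.4%, 46.0% and 53.5%, and the median levels at 0 nM 6.22, 3.09 and 3.36 CPM/kb.

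Of the 6 REs with a facing pair of cores, the one in NTNG1 was lower at 48 h and at 3 h (-1.42 ± 0.30, edgeR adjusted p = 0.003). EXO1, an exonuclease of DNA repair, ran from 0.631 to 1.14 CPM (median 0.822) at 0 nM and from 0.558 to 1.01 (median 0.632) at 500 nM, with overlap (-0.30 ± 0.21, edgeR adjusted p = 0.32), and was lower at 3 h (-0.83 ± 0.24, edgeR adjusted p = 0.037). With GC correction the 3 h change of EXO1 did not pass (-0.75, edgeR adjusted p = 0.055), nor did its 3 h difference from WT cells (-1.05 ± 0.34, edgeR adjusted p = 0.098). The pairs in PKHD1 (0.18), FGL1 (0.03) and MYO3B (0.00) went with log2 fold changes that did not pass at 48 h.

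Neighbouring REs were also compared. The nearest other RE was lower at 500 nM for 25.4% of lowered coding-exon REs, for 7.14% of raised ones and for 9.70% of the rest. A promoter RE of the host gene was lower for 18.3%, 18.7% and 15.7% of those that had one. Another lower RE existed in the host gene for 61.9%, 58.5% and 46.3% of those with other REs in the gene. These shares also depend on how many other REs a gene holds. Of the 1317, 1042 and 8568 other REs in the host genes, 16.8%, 12% and 15.4% were lower, against 13.9 percent of all REs. All of these calls come from the same samples.

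Partial depletion lowered fewer of these REs. At 16 nM 83 were lower (7.43%, against 9.12 percent of all REs) and 51 higher (4.57%, against 7.12 percent). With each replicate as a block, rather than each differentiation, 136 were lower and 96 higher. At 5 nM 42 were lower (3.76%, against 4.24 percent) and 4 higher (0.358%, against 1.08 percent). Without the S9CC47_R6 library pair 67 were lower and 31 higher at 5 nM, and with the replicate block 52 and 21. The shares of all REs, here and at the lower doses, are those of the main fit. Counts with the replicate block, with DESeq2 or without a library pair are not to be read against them. The 4 higher at 5 nM, named after their values were seen, were in PRMT8, LRP1B, FAM120B and PAPPA, with 5 nM log2 fold changes of 0.61, 0.63, 0.75 and 0.72. Without S9CC47_R6 these were 0.59, 0.65, 0.72 and 0.70, and all 4 passed.

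At 1.6 nM no coding-exon RE passed the edgeR threshold, against 0.0383 percent of all REs for lower calls. An unadjusted p under 0.05 was found for 43 (3.85%, against 5.16% of all REs), DESeq2 called 1 lower, and the replicate block gave 5 lower and 1 higher. At 0.5 nM no RE of any class passed with edgeR and no coding-exon RE with DESeq2, and 47 coding-exon REs (4.21%, against 3.45% of all REs) had an unadjusted p under 0.05. These comparisons share the 0 nM libraries. The median log2 difference over the 126 REs chosen as lower at 500 nM was -0.70 at that dose over replicates (-0.79 to -0.61), -0.51 at 16 nM (-0.58 to -0.28), -0.39 at 5 nM (-0.45 to -0.20), -0.08 at 1.6 nM (-0.18 to -0.03) and -0.06 at 0.5 nM (-0.10 to 0.07).

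WASL, for example, had a log2 fold change of -3.16 ± 0.22 at 16 nM (edgeR adjusted p = 5e-09) and -1.93 ± 0.15 at 5 nM (edgeR adjusted p = 2.5e-06). CLCA1 had -2.20 ± 0.23 at 16 nM (edgeR adjusted p = 5.5e-07) and -0.88 ± 0.14 at 5 nM (edgeR adjusted p = 0.00074), though both REs lost more than 3 log2 units at 500 nM. Without S9CC47_R6 the 5 nM values were -1.98 ± 0.10 for WASL and -0.94 ± 0.11 for CLCA1 (edgeR adjusted p = 1.6e-18 and 5e-08). TGFBR2 stood at -0.09 ± 0.11 at 16 nM (edgeR adjusted p = 0.67).

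A Hill curve of accessibility against SOX9 level was fitted to each called RE, and its ED50 is the SOX9 level, in percent of full, at the midpoint of the fitted change. The median ED50 of the 126 lowered REs was 21.9% (interquartile range 8.36 to 33.5), with 83 under 30% and 15 over 40%, and that of the 84 raised REs was 17.5% (10.1 to 27.6). The curve improved the fit over a straight line by more than 2 units of the Akaike information criterion in 95 lowered and 59 raised REs. WASL had an ED50 of 40.5% (37.6 to 42.5 on leaving out single replicates), TNFAIP3 40.1% (35.6 to 42.6), OVCH1 38.5% (36.5 to 39.4), AP4E1 34.2% (33.0 to 35.7) and CLCA1 22.0% (20.1 to 23.9). TGFBR2 was at 3.61% (1.97 to 4.82), and the gains in SCAP and PAPPA at 9.69% (8.27 to 10.7) and 17.6% (15.1 to 21.1). No dose gave a SOX9 level between 0.95% and 8.14%. An ED50 in that gap, such as that of TGFBR2, is placed by the form of the curve, and its leave-one-out range does not measure this. Some curves were close to a step. Their Hill exponent (the steepness) stood at exactly 15, the highest value of any fit, in STAT5A, EYA4, IRS4 and others. This value may be a bound of the fit and is not read as a measured steepness.

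The 47 lowered REs that were also lower at 3 h had a median ED50 of 32.7%, and the 79 that were not had 13.02%. The former also had the larger change at 500 nM, with median log2 fold changes of -1.33 and -0.56, and no test separated the size of the change from its ED50.

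**Figure D4:**
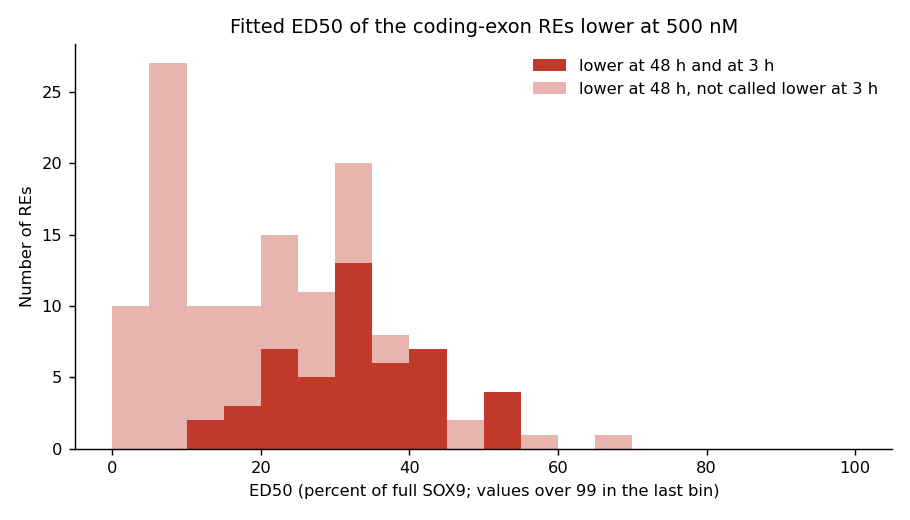
Number of the 126 coding-exon REs lower at 500 nM and 48 h by fitted ED50, in bins of 5% of full SOX9, stacked by whether the RE was also called lower at 3 h. The dark bars of REs lower at both times centre on higher values (median 32.7%) than the light bars (median 13.02%). No SOX9 level between 0.95% and 8.14% was measured.

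The time course, in samples that the 48 h comparison did not use, showed which losses were already called at 3 h and 24 h. Both sets of samples hold a differentiation labelled R5. After 3 h of 500 nM in SOX9-tagged cells 52 coding-exon REs were lower (4.66%, against 7.43 percent of all REs) and 10 higher (0.895%, against 0.912 percent). After 24 h 79 were lower (7.07%, against 9.93 percent) and 27 higher (2.42%, against 4.7 percent). Of the 126 REs lower at 48 h, 47 (37.3%) were lower at 3 h and 69 (54.8%) at 24 h. Among intron REs lower at 48 h these shares were 44.5% and 62.0%, among intergenic REs 46.4% and 62.8%, and among REs near a start 35.95% and 52.1%. At 3 h 93 of the 126 had a negative log2 fold change, against 437 of the 1117 coding-exon REs. Both replicates were negative in 70 of the 126, against 209 of the 1117. With 2 libraries a group, an RE not called at 3 h is not thereby shown to be lost late. Of the 84 higher at 48 h, 1 was higher at 3 h and 14 (16.7%) at 24 h. The counts rest on 2 differentiations, and both times were set against the same vehicle libraries, labelled 24 h. Without the vehicle library of R4 34 were lower at 3 h, and the number higher went from 0 to 21 at 3 h and from 3 to 46 at 24 h as single libraries were left out.

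Of the 52 REs lower at 3 h, 47 were also lower at 48 h. In vehicle CLCA1 stood at 4.62 CPM in R4 and 3.48 in R5, and after 3 h at 0.289 and 0.336 (-3.73 ± 0.31, edgeR adjusted p = 7.2e-08). OVCH1 went from 9.87 and 5.64 CPM to 0.955 and 0.403 (-3.61 ± 0.22, edgeR adjusted p = 1.6e-09), and RYR3 from 5.35 and 2.15 to 0.488 and 0.302 (-3.23 ± 0.28, edgeR adjusted p = 1.3e-07). In each of these 3 REs both treated libraries lay below both vehicle libraries. TNFAIP3 (-2.97 ± 0.36, edgeR adjusted p = 8.8e-06), ZBTB20 (-2.89 ± 0.25, edgeR adjusted p = 1.2e-07) and CD40LG (-2.74 ± 0.24, edgeR adjusted p = 1.3e-07) followed.

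At 24 h the values of these 6 REs were farther from vehicle, from -2.99 in CD40LG to -4.62 in CLCA1, and the difference between the times was not tested. WASL went from 43.1 and 13.02 CPM in vehicle to 8.46 and 2.70 at 3 h and 3.38 and 1.68 at 24 h, with log2 fold changes of -2.37 ± 0.14 and -3.44 ± 0.15 (edgeR adjusted p = 1.1e-09 and 1.7e-11). SCAP stood at 1.81 and 1.84 CPM in vehicle, 1.89 and 2.01 at 3 h and 3.69 and 3.65 at 24 h, and the change passed at 24 h but not at 3 h (0.04 ± 0.20 and 0.95 ± 0.18, edgeR adjusted p = 0.96 and 0.0011). TGFBR2 (0.23 ± 0.12) and CELSR3 (-0.03 ± 0.18) did not pass at 3 h (edgeR adjusted p = 0.36 and 0.96), nor at 24 h.

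A few REs, named after their values were seen, went against this order. LZTS2 and B4GALNT3 were lower at 48 h (-0.43 and -0.56) and higher at 3 h (0.46 and 0.68, edgeR adjusted p = 0.011 and 0.049). COL6A5 was higher at 48 h and lower at 3 h (-0.52 ± 0.16, edgeR adjusted p = 0.049), with 3.02 and 10.6 CPM in vehicle and 2.13 and 7.79 at 3 h, so that the groups overlapped. FBN3, a fibrillin, was higher at 48 h (0.54) and at 3 h (0.66, edgeR adjusted p = 0.01). EXO1, MTMR9 and ARHGEF6 were lower at 3 h and not called at 48 h. The GC slope of the libraries rose with treatment at 3 h, from -0.132 to -0.0214 log2 units per 10% GC in R4 and from -0.178 to -0.0988 in R5, and with correction for it 52 coding-exon REs were lower and 9 higher. Of the REs named here B4GALNT3 (0.61, edgeR adjusted p = 0.068) and EXO1 did not pass at 3 h with that correction. The 3 h difference from WT cells passed for B4GALNT3 (1.03 ± 0.28, edgeR adjusted p = 0.03) and for none of the others named here. It was -0.59 for COL6A5, 0.43 for LZTS2 and 0.60 for FBN3 (edgeR adjusted p = 0.3, 0.48 and 0.23). For MTMR9 it was -0.34 and for ARHGEF6 -0.62 (edgeR adjusted p = 0.83 and 0.087).

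**Figure D5:**
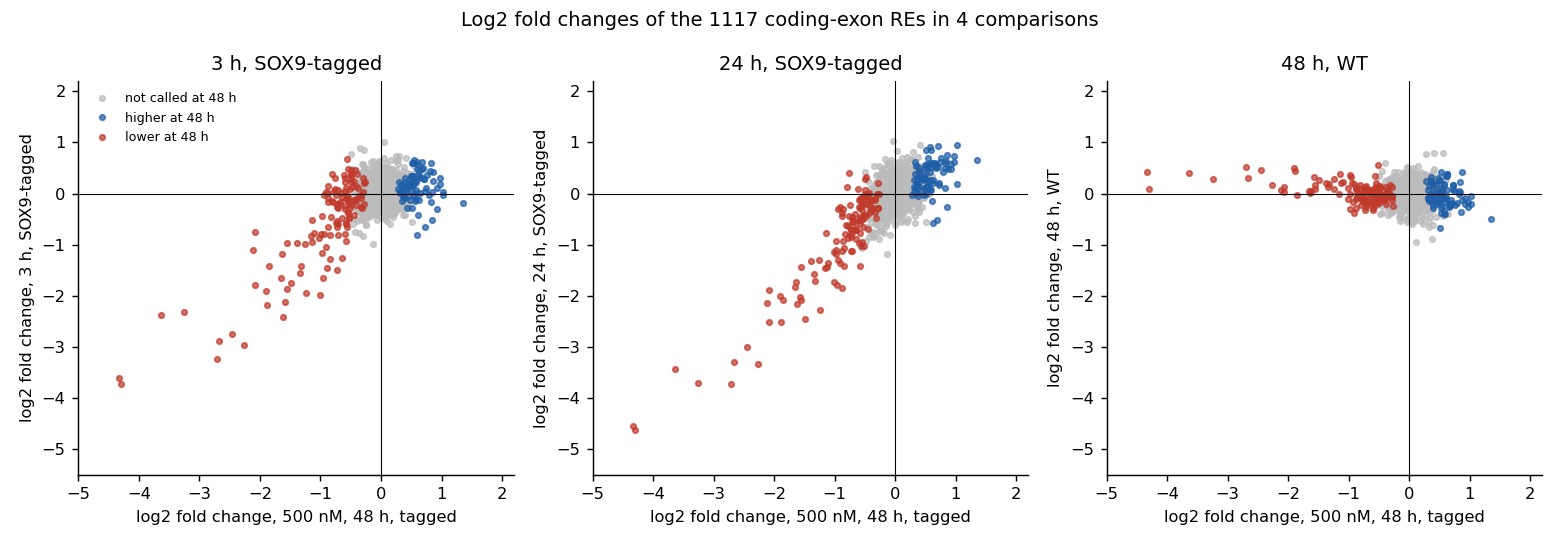
Log2 fold changes of the 1117 coding-exon REs at 500 nM and 48 h in SOX9-tagged cells (x axis of each panel) against those at 3 h, at 24 h and in WT cells at 48 h (y axes), coloured by the call at 48 h. Strongly lowered REs such as OVCH1 (-4.33) lie low at 3 h and 24 h (-3.61 and -4.55) and slightly above 0 in WT cells (0.41).

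WT cells, which hold untagged SOX9, showed few calls. At 500 nM and 48 h 1 coding-exon RE was lower (against 0.145 percent of all REs) and 2 were higher (against 0.158 percent). The lower one was in DIP2C, with 5.83 and 4.96 CPM at 0 nM and 3.83 and 3.79 at 500 nM (-0.51 ± 0.13, edgeR adjusted p = 0.048). The higher ones were WASL, from 16.8 and 21.3 CPM to 23.3 and 27.01 (0.40 ± 0.08, edgeR adjusted p = 0.0014), and OVCH1, from 4.10 and 11.8 to 6.75 and 13.5 (0.41 ± 0.11, edgeR adjusted p = 0.046). The groups overlapped for OVCH1 only, and DESeq2 called none of the 3. At 3 h and 24 h no coding-exon RE passed in WT cells with edgeR or DESeq2, with 33 (2.95%, against 2.41% of all REs) and 39 (3.49%, against 3.07%) at an unadjusted p under 0.05.

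The REs lost most in SOX9-tagged cells stood slightly higher in treated WT cells at 48 h. Of the 32 lowered 2-fold or more, 29 had a positive log2 fold change in WT cells and 21 in both WT replicates, with replicate medians of 0.165 and 0.215. The share with a positive value was 80.8% in intron, 82.3% in intergenic and 81.3% in near-start REs lowered 2-fold or more. Among the 94 coding-exon REs lowered less it was 43.6%, and among those not called 49.6%. In the WT time course 20 of the 32 were positive at 3 h and 19 at 24 h. With 2 replicates this is a description, and its cause was not tested.

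The effect of dTAGV-1 differed between the genotypes at some of the coding-exon REs (interaction term, edgeR adjusted p of 0.05). At 48 h it was lower in SOX9-tagged than in WT cells at 58 (against 7.29 percent of all REs) and higher at 25 (against 3.56 percent). All 58 were also lower at 500 nM in tagged cells. Both comparisons use the same SOX9-tagged libraries, so this overlap is not separate evidence. Leaving out any of the 4 WT libraries left 34 to 38 lower and 4 to 9 higher. At 3 h it was lower at 39 (against 5.13 percent) and higher at 2 (against 0.072 percent), and at 24 h lower at 56 (against 6.28 percent) and higher at 2 (against 0.45 percent). At 3 h, 25 were lower without the 3 h library of tagged R4 and 22 without its vehicle library.

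The difference between genotypes at 48 h was -4.83 ± 0.32 log2 units for OVCH1 (edgeR adjusted p = 3.2e-12), -4.38 ± 0.28 for CLCA1 (edgeR adjusted p = 1e-12) and -4.03 ± 0.21 for WASL (edgeR adjusted p = 1.8e-14). It was 1.87 ± 0.30 for PAPPA (edgeR adjusted p = 3.4e-05), 1.23 ± 0.27 for COL6A5 (edgeR adjusted p = 0.0019) and 1.08 ± 0.20 for SCAP (edgeR adjusted p = 0.00029). NTNG1 differed by -1.53 ± 0.29 (edgeR adjusted p = 0.00044), LRP2 by -2.32 ± 0.31 (edgeR adjusted p = 2.2e-06) and COL5A2 by -1.89 ± 0.36 (edgeR adjusted p = 0.00043). TGFBR2 (-0.25 ± 0.17, edgeR adjusted p = 0.47) and LAMA1 (-0.52 ± 0.22, edgeR adjusted p = 0.14) did not pass, and for TGFBR2 the WT change was -0.33 ± 0.10 (edgeR adjusted p = 0.15).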

How the data were processed

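ATAC-seq libraries of H9-derived CNCCs were counted by the authors over 1 fixed set of REs (hg38), and the deposited values are raw counts per RE in 58 columns, of which 0 were left unused. The submitters' processing notes name Bowtie2 2.4.1, SAMtools 1.10, MACS2 2.2.7.1, deepTools 3.5.0 and bedtools. Counts were scaled by TMM and tested over all 151457 REs with edgeR 4.0.16 in R 4.3.3 (quasi-likelihood F-test, Benjamini-Hochberg adjusted p of 0.05, differentiation as covariate). CPM uses TMM-scaled library sizes, and log values a prior count of 2. The SE of an edgeR log2 fold change was its absolute value divided by the square root of the F statistic. It is therefore not a measure of spread separate from that test. DESeq2 1.42.0, other scalings, a correction for GC content (lowess span 0.3), the replicate as block and the omission of single libraries were alternatives. Those that left out WT or time-course libraries for the WT and interaction comparisons, and the rule on the distance of the whole RE, were chosen after seeing the data. Positions were annotated with GENCODE release 44, motifs were read from hg38, and tables were made with Python 3.11.15, pandas 2.3.3, numpy 2.4.6 and scipy 1.17.1.

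Members and gene lists were chosen with earlier results of these data known. REs were named by fixed ranks: the 8 lowest and 6 highest changes at 500 nM moving one way in all 7 replicates, the 6 lowest at 3 h, REs with a facing SOX pair, the 5 highest levels, up to 3 called REs of each list, the 3 genes with most REs, and REs called in WT cells or, up to 8, at 1.6 nM. Replicate numbers mark shared differentiations, and samples of the same replicate correlated at every dose (r from 0.276 to 0.864 over 7 pairs). Samples of different replicates reached r of 0.506 at 500 nM and 0.586 at 5 nM, above the lowest same-replicate values there (0.413 and 0.276). At 500 nM 6 of 7 samples at 0 nM correlated best with their own replicate, and at each other dose all 7 did. No library pair agreed within sampling noise (chi-square per degree of freedom from 2.60 over 134 pairs). On simulated counts for 500 nM, with 200 of 151457 REs changed, 97.5% of changes of -1 and 35% of changes of -0.5 on the log2 scale were recovered. The data themselves gave 21114 lower and 15432 higher calls over all REs. The simulated spread followed the trend over REs and not each RE. These shares therefore do not measure the sensitivity of the reported test. Some items that these rules select are not reported here.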

Additional observations from a re-analysis of the deposited data

Results flagged for a closer look

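In the RE of exon 9 of LMBRD1, the log2 difference between 500 nM and 0 nM was 2.10 in S9CC13_R10 and between 0.46 and 1.12 in the other 6 replicates. It was the only one of 45 named REs with a replicate this far from the rest, and chance alone gives such a replicate in about 1 of 20 groups.

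The effect of dTAGV-1 differed between genotypes by the interaction term (edgeR adjusted p) at some coding-exon REs. At 48 h 58 were lower in SOX9-tagged cells (5.19%, against 7.29 percent of all REs) and 25 higher (2.24%, against 3.56 percent). At 3 h 39 were lower (3.49%, against 5.13 percent) and 2 higher (0.179%, against 0.072 percent). At 24 h 56 were lower (5.01%, against 6.28 percent) and 2 higher (0.179%, against 0.45 percent). Of the 25, GAA, SH3TC1 and CLIC5 were not called at 500 nM in SOX9-tagged cells (0.38, 0.19 and 0.38 on the log2 scale), and their changes in WT cells were -0.89, -0.54 and -0.28, none of which passed. The 2 higher at 3 h were in B4GALNT3 and ARHGAP23, and the 2 higher at 24 h in RABEP2 and FBN3. These REs were named after their values were seen.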

How the results depend on the processing

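Shares of all REs under the alternatives are not given here, so the counts below are not to be read against the main-fit shares. Counts of coding-exon REs are given as lower and higher. With no replicate block and no differentiation term they were 61 and 26 at 500 nM, 39 and 4 at 16 nM, 16 and 0 at 5 nM, 0 and 0 at 3 h, 9 and 0 at 24 h and 0 and 0 in WT cells at 48 h, and for the interaction 13 and 0 at 48 h, 7 and 0 at 3 h and 12 and 0 at 24 h. The replicate block gave 136 and 96 at 16 nM, 21 higher at 5 nM and 5 and 1 at 1.6 nM, and changed no other count by over 1.5 times. DESeq2 gave 7 higher at 5 nM, 1 lower at 1.6 nM, 3 higher at 3 h, 8 higher at 24 h, 0 and 0 in WT cells at 48 h and 0 higher for the interaction at 3 h and 24 h. The GC correction gave 3 and 4 in WT cells and 1 higher for the interaction at 3 h, and DESeq2 size factors 4 higher for that at 24 h. A limit of 5000 bp left 699 REs with 79 lower. Another rule, at least 50% of the RE coding wherever its midpoint lay, took 398 REs with 34 lower and 24 higher, the 381 coding-exon REs with that content among them. The cause was not tested.

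Leaving out single libraries gave 105 to 140 lower and 59 to 97 higher at 500 nM, 66 to 118 and 28 to 73 at 16 nM (28 without S9CC47_R5, 29 without S9CC47_R8), 33 to 67 and 3 to 31 at 5 nM (31 without S9CC47_R6, 8 without S9CC13_R6, 7 without S9CC13_R14), 0 to 3 lower at 1.6 nM (3 without S9CC47_R6, 2 without S9CC13_R6) and 0 to 6 at 0.5 nM (6 without S9CC13_R6). In the time course it gave 34 to 48 and 0 to 21 at 3 h (34 and 0 without vehicle R4, 21 without 3 h R5, 1 without 3 h R4, 4 without vehicle R5) and 53 to 92 and 3 to 46 at 24 h (46 without 24 h R5, 3 without vehicle R4, 9 without vehicle R5). In WT cells it gave 0 to 12 and 0 to 1 at 3 h (12 without 3 h R4) and 0 to 1 lower at 24 h. For the interaction it gave 34 to 38 and 4 to 9 at 48 h, 22 to 46 and 0 to 10 at 3 h, and 38 to 57 and 0 to 11 at 24 h. A lone library left in a group is assumed to vary like the other groups, and in WT cells at 48 h the omission was not run, since no residual degrees of freedom remain. The median ED50 ran from 17.5% to 27.1% for lowered and from 12.7% to 26.3% for raised REs.

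Of the values of named REs under the alternatives, 422 kept direction and call, 17 lost and 5 gained the call. The 18 that changed sign belonged to REs not called at 500 nM. With GC correction, without and with the replicate block, DIP2C stood at 0.0311 and 0.0343, MYO3B at -0.00289 and -0.00101, LAMA4 at -0.0258 and -0.0245 and FGL1 at -0.0738 and -0.0823. LAMA4 stood at -0.00213 with no replicate block, and exon 14 of LAMA2 at 0.00438 with DESeq2 and 0.00461 with its size factors. Leaving out single replicates gave -0.112 to 0.0507 for DIP2C, -0.11 to 0.0716 for exon 6 of KNDC1, -0.0387 to 0.0575 for MYO3B, -0.0327 to 0.0398 for LAMA4, -0.0452 to 0.0584 for exon 14 and -0.0473 to 0.203 for exon 32 of LAMA2, and -0.0391 to 0.133 for FGL1. Depth limits the weakest REs, since the median coding-exon RE held 40 to 157 counts per library.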
